A study of Ulva lactuca with 4 samples.

Results

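The change in RNA between 24 h and 36 h of desiccation was described in thalli of Ulva lactuca, a green seaweed whose sheet-like body has no roots, cuticle or vessels. The 36 h library and the 24 h library came from thalli desiccated for those durations at 20% moisture, 1 library per condition. A library from thalli desiccated for 72 h at 20% moisture and a control from thalli kept under water throughout were set beside them. Contigs, the transcript pieces put together from the reads without a reference genome, were kept when they had at least 50 scaled counts at 36 h or at 24 h. A scaled count is the reads of a contig divided by the size factor of its library, a depth correction computed over all 4 libraries. The rule kept 40776 of the 105451 contigs, or 38.7%. The other 64675 contigs held 0.632% of the reads at 36 h and 0.601% at 24 h, and 12254 of them had no read in either library. Just inside the minimum, 1345 contigs had 50 to 60 scaled counts in the higher of the 2 libraries, and just outside it 1875 had 40 to 50.

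Intertidal algae such as Ulva lose water to the air at low tide and take it up again when the tide returns. Drying concentrates the cell contents, slows photosynthesis and raises the load of reactive oxygen, and the cells are known to answer with antioxidants, protective proteins and compatible solutes. Which of these functions the contigs below belong to cannot be read from the tables used here, which give identifiers of the assembly and no gene names. In such an identifier, contigs that share the c and g numbers form 1 cluster, usually taken as 1 gene or a group of similar genes, and the i number counts its variants.

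The 36 h library held 71024673 reads on contigs and the 24 h library 74243310, so the pair was close in depth. The 72 h library held 53279365 and the control 52643595. The size factors were 1.15 at 36 h and 1.13 at 24 h, against 0.890 at 72 h and 0.885 in the control. The sources used here do not say whether the libraries came from the same thalli, from pools or from the same time of day, so the duration of desiccation cannot be told apart from those. With 1 library on each side no test was possible. All differences compare these libraries, and all intervals are exact Clopper-Pearson 95% intervals that cover counting error only. For a share of a library's reads that error was at most 0.0135 percentage points either way. Intervals over several contigs take each read as counted 1 time, and are too narrow where that does not hold.

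Most contigs stood at a similar level at 36 h and 24 h. Within 1.5-fold of each other were 20867 contigs (51.2%), and within 2-fold 29692 (72.8%). The median contig differed by 1.48-fold in either direction. The log2 ratio of 36 h over 24 h, with 1 added to each scaled count, had a median of -0.04 and quartiles of -0.60 and 0.53. These differences were mostly wider than counting error, since the interval of the ratio included 1 in 7589 contigs (18.6%). Between 2-fold and 4-fold, 3799 contigs were higher and 4242 lower at 36 h. A step of 4-fold or more upward at 36 h was met by 1625 contigs (3.99% of those kept), and one downward by 1418 (3.48%), together 7.46%. In 1152 of the higher and 920 of the lower contigs the whole interval lay past 4-fold. The median fold was 6.85 among the higher and 6.74 among the lower contigs, and 97 of the higher and 75 of the lower were at least 64-fold apart.

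**Figure D1:**
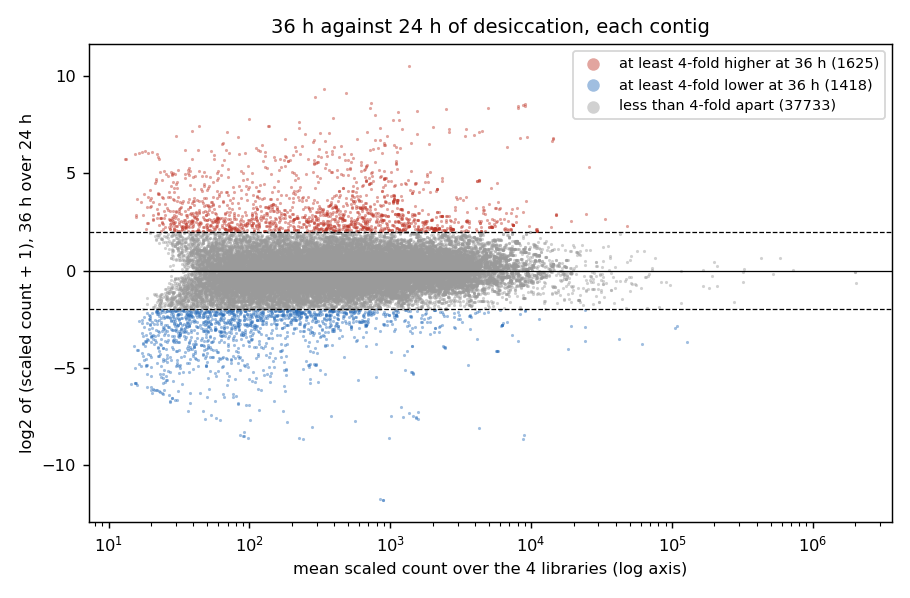
Each point is a contig, with its mean scaled count over the 4 libraries on a log axis and the log2 ratio of (scaled count + 1) at 36 h over 24 h. Red points are the 1625 contigs at least 4-fold higher at 36 h, blue points the 1418 at least 4-fold lower, and dashed lines mark 4-fold. At a mean of 300 or more there are 865 red and 359 blue points, and under it 760 red and 1059 blue, on a mean that includes the control and 72 h libraries.

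The share of contigs at least 4-fold apart was the lowest of the 6 pairs of libraries. It was 12.9% for 72 h over 36 h, 14.0% for 36 h over the control, 16.6% for 24 h over the control, 17.6% for 72 h over 24 h and 22.2% for 72 h over the control. By the typical size of the difference the pair was close to 72 h over 36 h. The median contig differed by 1.48-fold for 36 h over 24 h and by 1.45-fold for 72 h over 36 h. Over the same 46571 contigs in each pair, the medians were 1.48-fold and 1.46-fold, and the shares at least 4-fold apart 7.75% and 12.9%. The share of reads that lay on different contigs was likewise close, at 21.0 percentage points between 36 h and 24 h and 21.3 between 72 h and 36 h. In the remaining pairs the median contig differed by 1.68-fold to 1.90-fold, and 28.8 to 33.0 percentage points of the reads lay on different contigs. The 36 h and 24 h libraries were also the deepest pair, and the part of depth in this order was not tested. Pairs that share a library are not independent, and no spread between libraries of 1 condition was measured.

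The contigs with the most reads took a smaller part of the 36 h library than of the 24 h library, by an amount that depended on how many were taken. The 10 contigs with the highest mean scaled counts held 15.3% of the reads at 36 h and 16.4% at 24 h, and the highest 1000 held 39.8% and 44.5%. The 100 contigs with the highest mean scaled counts held 24.0% of the reads at 36 h and 29.4% at 24 h, against 22.3% in the control and 19.4% at 72 h. Of these 100 contigs, 75 were within 2-fold between 36 h and 24 h, 2 were apart by 4-fold or more upward and 5 downward. The largest single loss was in c42739_g1_i1, which took 1.22% of the reads in the control, 6.07% at 24 h, 4.07% at 36 h and 1.38% at 72 h. Its level at 36 h was 1.58-fold lower than at 24 h (95% interval 1.582 to 1.587). The contig c65101_g1_i1 took 0.089% of the reads in the control, 1.12% at 24 h, 0.383% at 36 h and 0.126% at 72 h. It was 3.12-fold lower at 36 h (3.11 to 3.14). Both contigs took the largest share at 24 h and the second largest at 36 h, and their 72 h share was nearer to that of the control.

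The largest gains in share of reads were smaller than these losses. The contig c19261_g1_i1 took 0.694% of the reads in the control, 0.905% at 24 h, 1.51% at 36 h and 0.627% at 72 h. It was 1.57-fold higher at 36 h than at 24 h (1.564 to 1.574). The contig c23634_g1_i1 took 0.585%, 0.638%, 1.04% and 0.517% in the same order, and was 1.54-fold higher at 36 h (1.53 to 1.541). Both had their highest value of the 4 libraries at 36 h. All 4 of these contigs are alone in their clusters and less than 4-fold apart. A contig's share of reads also depends on its length, which the tables used here do not give, so shares were compared between libraries and not between contigs.

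Among contigs at least 4-fold apart, those higher at 36 h held 3.26% of the reads at 36 h (3.25 to 3.262) and 0.445% at 24 h (0.443 to 0.446). Those lower held 0.531% at 36 h (0.530 to 0.533) and 3.82% at 24 h (3.819 to 3.83). The 10 most read of the higher contigs, from 7 clusters, held 0.433% of the reads at 36 h. The 10 most read of the lower contigs, also from 7 clusters, held 1.99% at 24 h. Of that, 0.976% lay on the 4 contigs of the cluster c28079_g1, where a read may have been counted on several contigs.

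The balance of directions differed between well-read and poorly read contigs, and its size depended on how the level was taken. By the mean of 36 h and 24 h alone, 677 of the 24556 contigs with 300 or more scaled counts were apart upward and 390 downward at 36 h, so that 63.4% of those apart were higher. Among the 16220 contigs with a smaller mean, 948 were higher and 1028 lower, or 48.0% higher. With 1 contig per cluster, taken as the one with the highest mean over the 4 libraries, the percent higher was 54.9 (212 against 174) at 300 or more and 40.2 (449 against 667) under it. By the mean over all 4 libraries the split was wider, with 70.7% higher at 300 or more (865 against 359) and 41.8% under it (760 against 1059). That mean includes the control and 72 h libraries, whose levels differ between the higher and the lower contigs, so it partly sorts contigs by their course over the libraries. The value of 300 and the mean of 36 h and 24 h were chosen after values were seen.

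With 1 contig per cluster there were 661 higher and 841 lower in all, so contigs and clusters gave opposite balances. The higher contigs lay in 779 clusters and the lower ones in 957. Clusters with several contigs leaned higher even when each was counted once, with 387 cluster sums at least 4-fold higher and 298 lower.

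The contigs that differed between 36 h and 24 h were then set beside the control and 72 h libraries, which entered their choice only through the size factors. The median scaled count of the 1625 higher contigs was 239 in the control, 37.3 at 24 h, 359 at 36 h and 297 at 72 h. Their quartiles at 24 h, 11.5 and 128, lay below those in the other libraries, which were 30.5 and 1393 in the control, 122 and 1236 at 36 h and 74.2 and 988 at 72 h. The median of the 1418 lower contigs was 44.1 in the control, 203 at 24 h, 23.6 at 36 h and 69.1 at 72 h. The order of 36 h and 24 h in both sets follows from the choice of the contigs. The medians of the control and of 72 h lay between those of 36 h and 24 h in both. Choosing contigs far apart at 36 h and 24 h favours such a middle position, so it is no separate finding. Over all contigs kept, the medians were 459, 447, 435 and 466 in the same order.

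**Figure D2:**
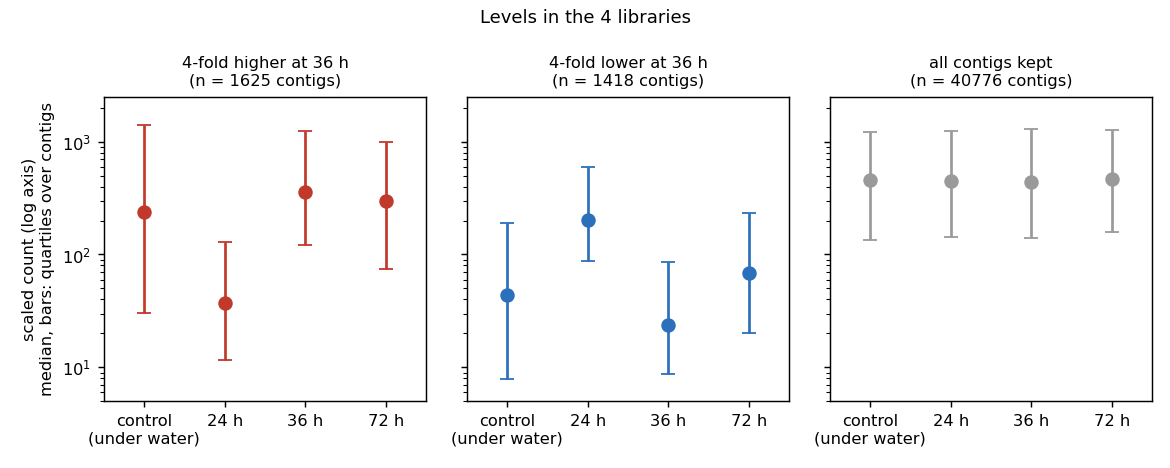
Points are medians of the scaled count over contigs on a log axis and bars reach from the lower to the upper quartile, in the control, at 24 h, 36 h and 72 h. In the 1625 contigs higher at 36 h the 24 h median is 37.3, and in the 1418 lower contigs it is 203. The order of 36 h and 24 h is set by the choice of these contigs, and the control and 72 h medians lie between them, which that choice favours. The medians over all contigs kept lie between 435 and 466.

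The control lay near the 36 h level more often than near the 24 h level. Of the 1625 higher contigs, 583 (35.9%) had a control within 2-fold of 36 h and 367 (22.6%) a control within 2-fold of 24 h. In 319 the control was above both, in 171 below both and in 185 between them, at least 2-fold from each. Of the 1418 lower contigs, 483 (34.1%) had a control near 36 h and 317 (22.4%) a control near 24 h, with 39 above both, 355 below both and 224 between. A control above both was thus more frequent among higher contigs, and a control below both among lower ones. Among the lower contigs a control below both was thus more frequent than a control near 24 h.

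The 72 h library was nearer to 36 h to a greater degree. It lay within 2-fold of 36 h in 860 (52.9%) of the higher contigs and within 2-fold of 24 h in 207 (12.7%). Among the lower contigs the numbers were 623 (43.9%) and 323 (22.8%). It lay beyond 36 h, above both durations, in 187 of the higher contigs, and below both in 94 of the lower ones. For 331 of the higher and 270 of the lower contigs the control and 72 h were both within 2-fold of 36 h, so that the 24 h library alone differed. The reverse, with the control and 72 h both within 2-fold of 24 h and the 36 h library alone apart, was seen in 56 of the higher and 85 of the lower contigs. With 1 library per duration, a difference in the 24 h thalli or library cannot be told apart from a change during desiccation.

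**Figure D3:**
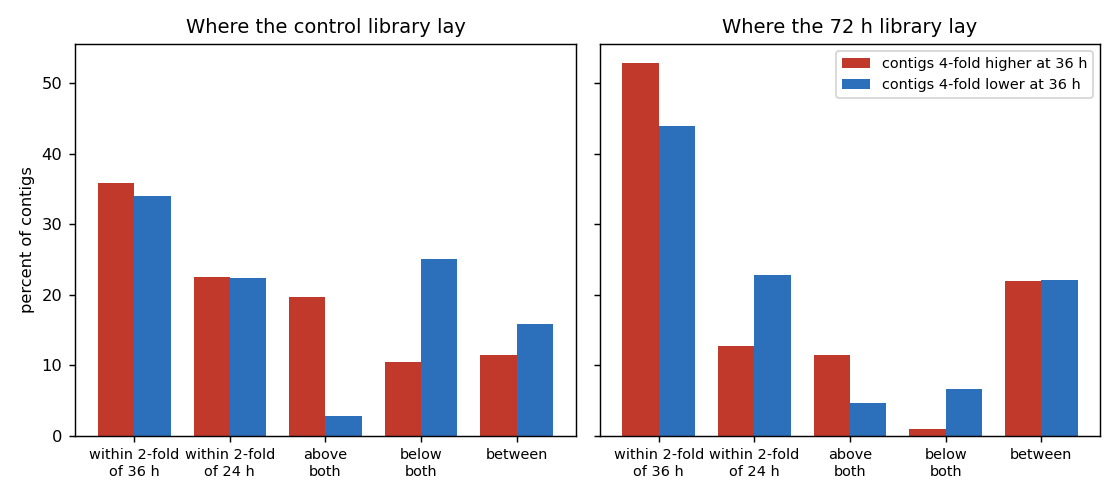
Bars give the percent of contigs in which the control (left) or the 72 h library (right) lay within 2-fold of 36 h, within 2-fold of 24 h, above both, below both or between them, in red for the 1625 contigs higher and in blue for the 1418 lower at 36 h. The tallest bars are those within 2-fold of 36 h, 35.9% and 34.1% for the control and 52.9% and 43.9% for 72 h.

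Contigs with a control near 24 h, in which the difference appeared at 36 h, included some very large steps. Of those with at least 1000 scaled counts in the higher library, the 2 higher contigs with the highest lower bound of the ratio were c28201_g3_i1 and c28201_g1_i1. The contig c28201_g3_i1 had 18 reads in the control, 18 at 24 h, 4119 at 36 h and 461 at 72 h. Its ratio of 36 h over 24 h was 225 (142 to 380). The contig c28201_g1_i1 had 2, 6, 1644 and 120 reads in the same order, a ratio of 269 (123 to 735). Both were near absent until 36 h and lower again at 72 h, and their identifiers share the c number but not the g number. The authors' deposited fold changes were 183 and 658 for 36 h against the control, and 0.145 and 0.0946 for 72 h against 36 h. These values rest on the same reads by which the contigs were chosen, so they add no support.

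On the lower side, c27447_g2_i4 had 2849 reads in the control, 2699 at 24 h, 13 at 36 h and 597 at 72 h. It was 211-fold lower at 36 h than at 24 h (123 to 397). Its cluster partner c27447_g2_i6 had 2765, 2606, 13 and 584 reads and was 204-fold lower (119 to 384). In this cluster the 36 h library was the lowest, with all 9 contigs at least 4-fold lower there than at 24 h. The control and 24 h were within 2-fold of each other, and 72 h lay between them and 36 h. The 72 h level was also well below the control, as in c27447_g2_i4 with 671 scaled counts against 3220. The authors' deposited fold change of c27447_g2_i4 was 0.758 for 24 h against the control and 0.00365 for 36 h against the control. No replicates stand behind any of these fold changes, and they rest on the reads by which the contigs were chosen.

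Contigs with a control near 36 h, in which the 24 h library stood apart, included steps of the same order. The contig c18883_g1_i1 had 1423 reads in the control, 2 at 24 h, 1240 at 36 h and 186 at 72 h. It stood 609-fold higher at 36 h than at 24 h (168 to 5036). The contig c23398_g1_i1 had 2049, 6, 2068 and 366 reads in the same order, a ratio of 339 (155 to 924). Both were nearly unread at 24 h alone. Another contig of the same cluster, c23398_g1_i2, had 688, 12, 1 and 206 reads, so it was also nearly unread at 36 h. The authors' deposited fold change of c18883_g1_i1 was 0.00112 for 24 h and 0.697 for 36 h, each against the control. For c23398_g1_i1 the values were 0.00234 and 0.807. They too rest on the reads by which these contigs were chosen, and add no support.

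On the lower side of this group, c27762_g3_i12 had 29 reads in the control, 1188 at 24 h, 41 at 36 h and 50 at 72 h, and was 29.5-fold lower at 36 h than at 24 h (21.6 to 41.3). Its cluster held 12 contigs, of which 8 were at least 4-fold lower and none higher at 36 h. In c19661_g1_i3 all 3808 reads came from the 24 h library, with 0 elsewhere. With 3 counts in place of 0 at 36 h, it was at least 1292-fold lower there, and at least 1050-fold by the bound of the interval. Both contigs had their reads mostly at 24 h.

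By the bound of the interval nearest to 1, the widest gaps of all were in c21730_g1_i4 and c25906_g1_i7 on the higher side and in c19661_g1_i1 and c19661_g1_i2 on the lower side. The cluster of c21730_g1_i4 held 5 contigs, each with 0 to 9 reads at 24 h and 642 to 3266 at 36 h. In the control they had 1055 to 5725 reads. The cluster c19661_g1 held 3 contigs with 3808 to 4017 reads at 24 h, 0 at 36 h and at most 1 in the control and at 72 h. In both clusters every contig thus differed in the same direction, with 36 h nearer to the control than 24 h.

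**Figure D4:**
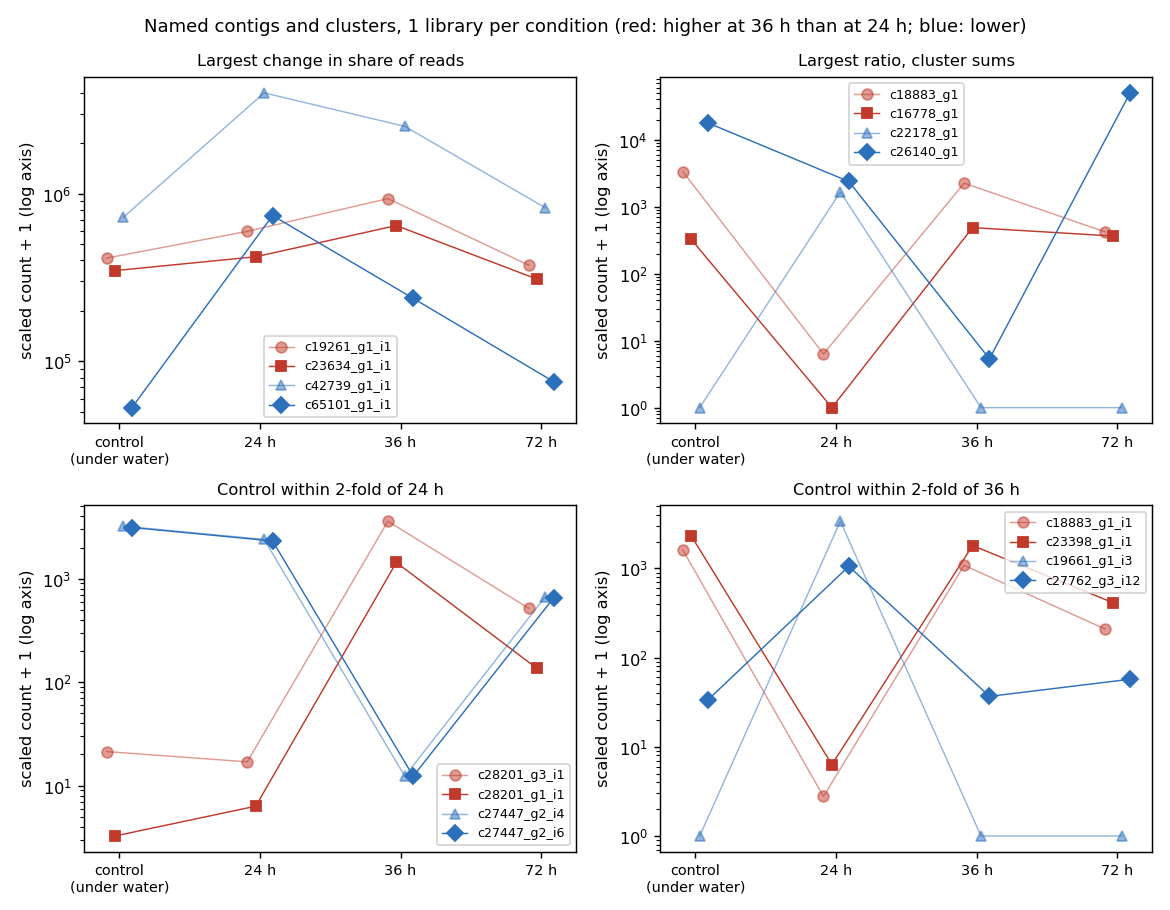
Scaled counts + 1 on a log axis in the control, at 24 h, 36 h and 72 h, 1 library each, for the contigs or clusters named by each rule. Red marks are higher and blue marks lower at 36 h than at 24 h. The contigs with a control within 2-fold of 24 h (lower left) step at 36 h, as c28201_g3_i1 with 18 reads at 24 h and 4119 at 36 h, and those with a control within 2-fold of 36 h (lower right) stand apart at 24 h.

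Contigs of 1 cluster mostly differed by similar amounts. Of the contigs kept, 35535 (87.1%) lay in the 7566 clusters with 2 or more of them. In 14600 of these contigs (41.1%), another contig of the cluster had a count within 5% in each of the 4 libraries. No source used here says how reads that fit several contigs were counted, and contigs of a cluster with such near-equal counts cannot be taken as separate measurements. The log2 ratio of 36 h over 24 h had a median range of 0.17 within a cluster, against an interquartile range of 1.13 over all contigs kept. These are unlike measures, and where reads were counted on several contigs a small range follows from that. A contig at least 4-fold apart was found in 764 of the clusters with 2 or more contigs kept. All kept contigs were apart in 427 of these clusters, higher in 254 and lower in 173, and part of them in 337.

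Some clusters, singled out after their values were seen, show how far this went. In c25906_g1, all 10 contigs were at least 4-fold higher at 36 h, but by different amounts. For 3 of them, c25906_g1_i2, c25906_g1_i4 and c25906_g1_i9, the ratio was 7.34, 7.18 and 7.26, with 16838 to 16971 reads at 36 h and 2259 to 2322 at 24 h. The other 7 had 2 to 27 reads at 24 h and ratios between 113 and 387. The contigs c25906_g1_i2 and c25906_g1_i9 each had 34517 reads in the control. In c25744_g1, all 10 contigs were higher by 10.3-fold to 12.0-fold, with 1113 to 1443 reads at 36 h and 105 to 126 at 24 h, beside 1794 to 2296 in the control and 383 to 467 at 72 h.

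The lower side held clusters of the same kind. In c28079_g1, all 4 contigs were lower at 36 h, by 7.09-fold to 7.61-fold. Its most read contig, c28079_g1_i3, had 46927 reads in the control, 305077 at 24 h, 43782 at 36 h and 61852 at 72 h, so that 24 h alone stood high. In c27428_g2, 13 of the 17 contigs kept were at least 4-fold lower at 36 h, and none higher. The widest gap there was in c27428_g2_i6, with 185 reads in the control, 1401 at 24 h, 7 at 36 h and 59 at 72 h, while c27428_g2_i9 had 909 reads at 36 h and 15652 at 24 h.

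Not every contig of such a cluster differed. In c27704_g1, 10 of 12 contigs were at least 4-fold higher at 36 h, where c27704_g1_i1 had 8118 reads against 690 at 24 h. The control gave 4553 reads of that contig and the 72 h library 9402.

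Contigs at least 4-fold apart in opposite directions were found in 2 of the 764 clusters with 2 or more contigs kept and a contig apart. In c27628_g4, which held 19 contigs, 3 were at least 4-fold lower and 2 at least 4-fold higher at 36 h. The contig c27628_g4_i1 had 2448 reads in the control, 1862 at 24 h, 92 at 36 h and 439 at 72 h, a 20.6-fold lower level at 36 h than at 24 h (16.7 to 25.7). The contig c27628_g4_i2 had 1, 2, 108 and 48 reads in the same order, a ratio of 53.1 (14.3 to 444). Most other contigs of the cluster were near 1, as c27628_g4_i4 with 3913 reads at 36 h and 3320 at 24 h, which made the ratio 1.16 (1.11 to 1.21).

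In c28026_g2, which held 21 contigs, 4 passed 4-fold upward and 1 downward at 36 h. The contig c28026_g2_i16 had 8 reads in the control, 36 at 24 h, 604 at 36 h and 226 at 72 h, which made 36 h over 24 h a ratio of 16.5 (11.8 to 23.8). The contig c28026_g2_i12 had 79, 488, 117 and 56 reads, a 4.24-fold lower level at 36 h (3.46 to 5.24). The most read contigs of this cluster hardly differed, as c28026_g2_i14 with 4880 reads at 36 h and 5274 at 24 h. The 5 contigs of c28026_g2 that were apart had at most 604 reads in any library. In c27628_g4 the 3 lower contigs, c27628_g4_i1, c27628_g4_i8 and c27628_g4_i11, had 92, 149 and 149 reads at 36 h and 1862, 2172 and 2192 at 24 h.

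**Figure D5:**
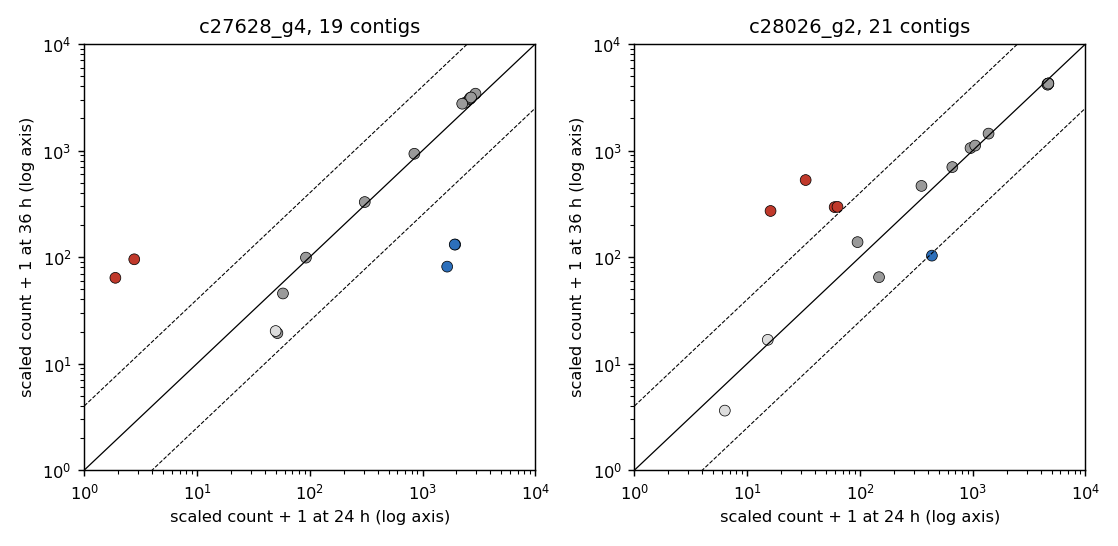
Each point is a contig of cluster c27628_g4 (left, 19 contigs) or c28026_g2 (right, 21 contigs), with scaled count + 1 at 36 h against that at 24 h on log axes. The solid line marks equal levels and dashed lines 4-fold, red contigs are at least 4-fold higher and blue ones lower at 36 h, and pale ones are under 50 scaled counts at both durations. Most contigs lie near the solid line, and in c27628_g4 the 3 blue contigs had 1862 to 2192 reads at 24 h.

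When the counts were summed per cluster, 708 of 13393 clusters (5.29%) were at least 4-fold higher and 869 (6.49%) lower at 36 h. Of the 3043 contigs apart, 892 were alone in their clusters. For the other 2151, the cluster sum was 4-fold apart in the same direction in 1768, 2-fold to 4-fold in 252 and within 2-fold in 131. A sum can count a read more than 1 time where contigs overlap, and the interval of its ratio is then too narrow. Passing over the clusters of the contigs named above for the widest gaps, the cluster sums with the bound farthest from 1 were c18883_g1 and c16778_g1 on the higher side. The cluster c16778_g1, a lone contig, had 286 reads in the control, 0 at 24 h, 558 at 36 h and 324 at 72 h. With 3 counts in place of 0, the 36 h level was at least 183-fold above that at 24 h, and at least 148-fold by the bound of the interval. Both contigs of c18883_g1 were nearly missing at 24 h, with 2577 reads in sum at 36 h and 6 at 24 h, which made the ratio 422 (194 to 1151).

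On the lower side of the cluster sums, c22178_g1 had 5 contigs with 1865 reads in sum at 24 h and 0 in each other library. Its sum was 633-fold lower at 36 h with 3 counts in place of 0, and 514-fold by the bound of the interval. The single contigs had 218 to 443 reads at 24 h, and a sum that counts reads several times overstates both values. The cluster c26140_g1 had 15735 reads in the control, 2679 at 24 h, 5 at 36 h and 44602 at 72 h. It was 545-fold lower at 36 h than at 24 h (233 to 1681). Its 2 contigs were thus lowest at 36 h and highest at 72 h of the 4 libraries.

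Few contigs went between read and nearly unread. At least 50 scaled counts at 36 h and at most 3 reads at 24 h were found in 104 of the 40776 contigs kept. These were 6.40% of the higher ones and lay in 79 clusters. Of these contigs, 23 had 0 reads at 24 h. Over all 104, the median level at 36 h was 97.3 scaled counts. In 54 of the 104 the control also had at most 3 reads and in 38 it had at least 50 scaled counts, and 15 had at most 3 reads in both the control and the 72 h library. The reverse was found in 147 of the 40776 contigs kept, 10.4% of the lower ones, in 124 clusters. Of these contigs, 49 had 0 reads at 36 h. Over all 147, the median level at 24 h was 78.2 scaled counts. In 71 of the 147 the control had at most 3 reads and in 15 at least 50 scaled counts, and 19 had at most 3 reads in both the control and the 72 h library. Over all contigs kept, the lower quartile was 136 scaled counts in the control and 158 at 72 h. The share of all contigs kept with at most 3 reads in the control or at 72 h was not computed. The contigs counted here passed the minimum only through 36 h or only through 24 h, which favours few reads in the other libraries too. A count of 0 allows up to 3 reads, which is 2.62 scaled counts at 36 h and 2.66 at 24 h.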

How the data were processed

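RNA-seq of 4 libraries was used, 1 per condition. Cutadapt, Bowtie2 and DESeq are named in the submitters' processing notes, which do not give their roles; no source used here names versions, assembler or settings. Each of the 5 tables holds deposited read counts per contig, and beside them a signal headed BaseMean. Where it was used here, it was the count divided by 1 constant per library, taken as the authors' size factor. A fold change (a linear ratio) and a p-value with its adjusted form were deposited for each table. The counts at 36 h and 24 h were joined by contig through their tables with the control; in 6 of 6 cases repeated count columns were identical. A table comparing 36 h with 24 h directly was not analysed here. No column of per-sample values was left out.

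Size factors were medians of ratios over contigs read in all 4 libraries. A contig counted as apart at 4-fold or more on (scaled count + 1). Ratios of named contigs have nothing added. With 1 library a side there are 0 residual degrees of freedom, and no test was run; the calculation was tested on simulated data. The members, groups and rules were chosen with earlier results of these data known. The contigs named are at most 2 higher and 2 lower per rule, since they carry no gene names: by change in share of reads, by the bound of the 95% interval nearest to 1 over contigs and over cluster sums, in clusters with opposite contigs, and, with at least 1000 scaled counts, with the control within 2-fold of 24 h or of 36 h. Clusters described beyond this were chosen after their values were seen. Gene lists could not be applied. Python 3.11.15, pandas 2.3.3, scipy 1.17.1 and, for TMM factors, edgeR 4.0.16 were used.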

Additional observations from a re-analysis of the deposited data

How the results depend on the processing

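No paired analysis was possible because each condition had 1 library. For the same reason no library could be left out of the 36 h and 24 h comparison. Of 137 alternative values, 75 stayed within 1.5 times the main count or within a 95% range around the main value, 58 moved and 4 turned round. For a percent of contigs or clusters and for the median, that range treated contigs or clusters as separate measurements. It only sorted the alternatives and measured no spread between libraries.

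The balance of directions was the least stable result. Of the contigs apart, 53.4% were higher at 36 h. This became 48.4% with the authors' scaled values taken through the 72 h table, 48.9% at a 2-fold threshold (5424 higher and 5660 lower) and 44.0% with 1 contig per cluster (661 and 841). Summed over clusters it was 44.9%, and 56.5% once clusters of 1 contig were left out (387 and 298). It was 58.8% with library totals, 55.2% with upper quartile scaling, 55.9% with the filter on the mean of the 2 libraries, 58.8% with a filter of 200 scaled counts and 55.6% where the whole interval had to lie past 4-fold (920 lower). Cluster sums gave 49.6% with library totals.

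By the mean over 4 libraries, 70.7% of the contigs apart were higher at 300 or more scaled counts and 41.8% under it. By the mean of 36 h and 24 h alone these were 63.4% and 48.0%. The other alternatives kept the mean over 4 libraries, which takes in the differences between libraries, so they say nothing on that dependence. At 300 or more the percent higher was 75.2 with library totals, 65.2 with the authors' scaled values through 72 h, 57.7 at 2-fold, 78.6 at 8-fold and 62.0 with 1 contig per cluster. Under 300 it was 50% with no filter, 47.0 with library totals, 44.1 with the upper quartile, 37.5 with the authors' scaled values through 72 h, 48.2 and 35.8 with filters of 10 and 200 scaled counts, and 36.5 with 1 contig per cluster.

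Counts followed the filter and the threshold. With no filter 6118 contigs were higher and 5594 lower. With a filter of 10 scaled counts these were 3592 and 3278, and with 200 they were 1024 and 717. At 8-fold they were 662 and 569. Clusters apart numbered 2363 higher and 2500 lower with a filter of 10 (48.6% higher) and 367 and 387 with 200 (48.7%). Clusters with opposite contigs numbered 5 with a filter of 10, 1 with 200 and 1 with library totals. The median absolute log2 ratio was 0.67 with a filter of 10 and 0.53 with 200. With 0 reads asked for in place of at most 3, 23 contigs were read at 36 h alone of the pair and 49 at 24 h alone. Without its most read contig, the share of reads was 3.12% at 36 h for the higher contigs and 3.41% at 24 h for the lower ones.

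Of the contigs apart whose control was within 2-fold of 36 h or 24 h but not of both, 60.9% had it near 36 h. This was 52.4% and 66.3% with filters of 10 and 200, and 63.2% with at least 10 reads in each library. For the 72 h library the 73.7% became 66.9%, 79.8% and 76.9% in the same order, 70.4% with the upper quartile and 70.7% with 1 contig per cluster. The alternatives with 1 contig per cluster, with 10 reads in each library and with the mean of 36 h and 24 h, and the split at 300, were chosen after seeing the data. The causes of these shifts were not tested. Depth limits the less read contigs: the interval of the ratio included 1 in 25.5% of those with a mean under 100 scaled counts and in 27.3% of those between 100 and 300, against 1.52% at 10000 or more.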
